A study of Sus scrofa with 4 samples.

Results

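The 10 genes described here, KLF2, KLF3, KLF4, KLF5, KLF6, KLF7, KLF9, KLF10, KLF13 and KLF15, encode Krüppel-like factors, and they were taken by gene symbol from the 16192 protein-coding genes measured during the differentiation of porcine subcutaneous preadipocytes. All 10 had a value in each of the 4 libraries. Of these, 8 were reliably expressed, that is with 3 or more of the 4 libraries at FPKM 1 or above, whereas KLF2 and KLF5 were not. FPKM expresses the fragments on a gene relative to its length and to the size of the library. KLF15 was below 1 at D0 and passed through the other libraries, so that D0 was necessarily its lowest level.

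The cells came from subcutaneous fat of male Chinese Erhualian piglets in the first week of life, a breed that deposits much subcutaneous fat. At D0 they were confluent in growth medium with serum. D2 followed 2 days in this medium with dexamethasone, 3-isobutyl-1-methylxanthine and insulin added, and D4 a further 2 days with insulin as the only addition. D8 came after later culture in growth medium, so that the medium held serum throughout. RNA of 3 piglets was pooled into 1 library for each stage, so that there are no replicates and no test of stages, and a difference between stages cannot be told apart from one between libraries.

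Krüppel-like factors are transcription factors that bind GC-rich and CACCC sequences through zinc fingers at the end of the protein, and they differ mainly in the regions that recruit coactivators or corepressors. Several of them belong to the cascade of adipogenesis, worked out largely but not only in mouse cells. KLF4 and KLF5 act early and lead to CEBPB and PPARG, respectively, KLF6 represses the preadipocyte gene DLK1, and KLF9, KLF13 and KLF15 favour the expression of PPARG or the genes it controls. KLF2, KLF3 and KLF7 are known as inhibitors, KLF2 at the PPARG promoter and KLF3 at that of CEBPA. KLF9 and KLF15 are also direct targets of the glucocorticoid receptor, for which dexamethasone is a ligand, and KLF10 was first found as an early gene induced by TGF-beta.

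The totals behind FPKM, between 54128151 and 75387428 fragments per library, allowed the FPKM of each member to be turned back into whole reads. With these reads, every member except KLF2 and KLF5 rested on at least 127 reads in each library. The 95% intervals given below come from the reads and hold counting error alone. The spread between piglets or library preparations was not measured. Ratios between stages were computed on log2(FPKM + 0.01), which slightly understates those of low genes, and levels 2-fold or more apart were taken as different.

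As a check on the labelled cell type, the stromal markers were present in each library, with 7 or 8 of 9 markers at FPKM 1 or above. The 8 adipocyte markers summed to 122 FPKM at D0 and 491 at D2, then 1747 at D4 and 2076 at D8. FABP4 made up 853 FPKM of the sum at D4 and 1557 at D8, while CEBPA, LIPE, PLIN1 and PPARG were at least 2-fold lower at D8 than at D4. CIDEC, which was not reliably expressed, went the other way, with 5.01 FPKM at D4 and 54.6 at D8 (10.9-fold higher). For endothelial cells, in which KLF2 and KLF4 are abundant, 1 or 2 of 7 markers reached FPKM 1, and the sum ran from 2.14 to 6.46. The defining genes CDH5 and VWF were at 0 or below 0.05. PECAM1 had 2.56, 1.14, 1.70 and 1.87 FPKM at D0, D2, D4 and D8. ERG had 3.72, 0.981, 0.850 and 1.70 FPKM in the same order, and both were highest at D0. Immune markers summed to between 3.54 and 8.03, most of it CD14.

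**Figure D1:**
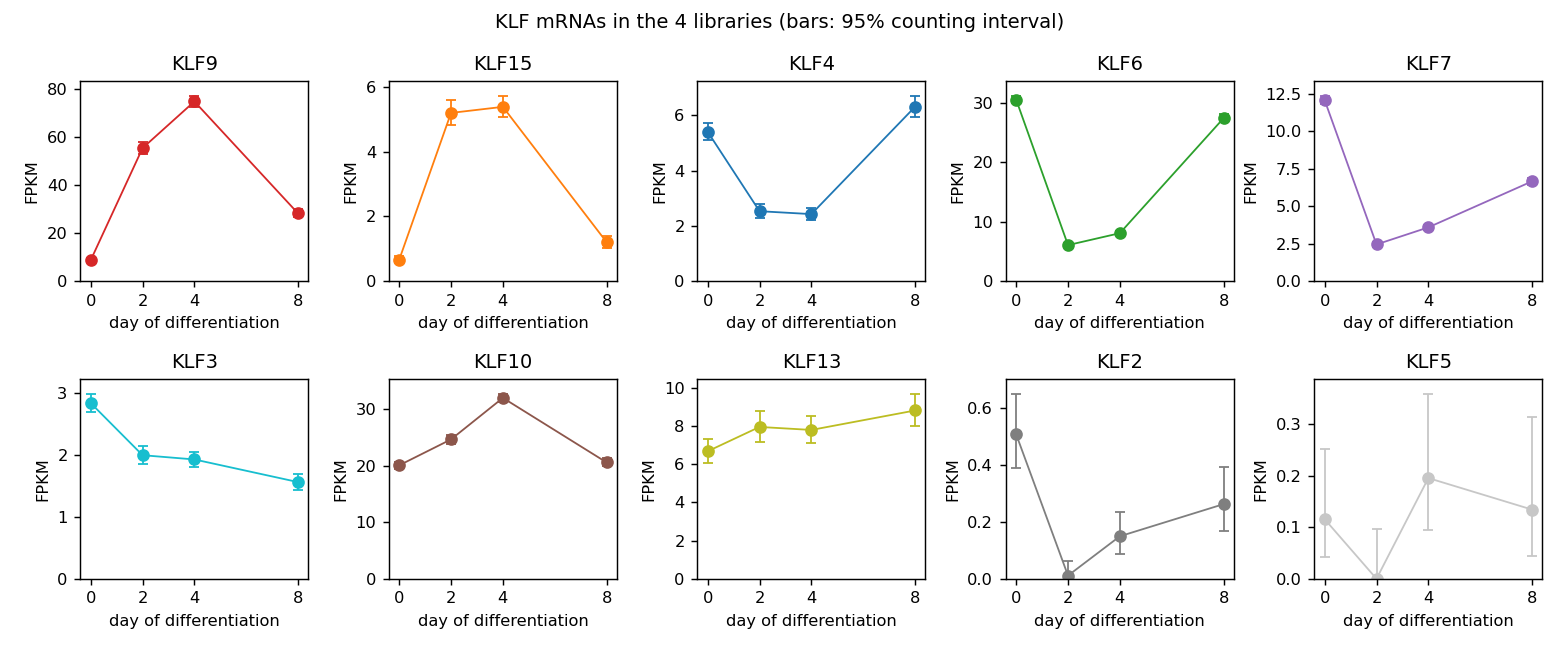
FPKM of the 10 KLF mRNAs against the day of differentiation, with 1 library per point and the 95% counting interval as bars; each panel has its own scale, starting at 0. KLF9 was highest at D4, KLF15 was about equal at D2 and D4 and lower at D0 and D8, KLF4, KLF6 and KLF7 were low at D2 and D4 and higher at D0 and D8, and KLF10 and KLF13 varied less.

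KLF9 and KLF15 were the members that were higher during differentiation. KLF9 lies on chromosome 1 from 223723613 to 223747661 (Sscrofa11.1, minus strand), and its level was 8.67, 55.4, 74.8 and 28.2 FPKM at D0, D2, D4 and D8. KLF15, on chromosome 7 from 53877813 to 53890558 (minus strand), had 0.657 FPKM at D0 and 5.20 at D2, then 5.39 at D4 and 1.20 at D8. Both mRNAs were high at D2 and D4 and low at D0, and at D8 KLF15 was closer to its level at D0 than KLF9 was.

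Between D2 and D0, KLF9 was 6.38-fold higher (log2 ratio 2.67, 95% counting interval 2.53 to 2.82) and KLF15 7.81-fold higher (log2 ratio 2.97, 2.71 to 3.27). Among the 9191 reliably expressed mRNAs, 87 had a log2 ratio of this comparison at or above that of KLF9 and 62 at or above that of KLF15. From D2 to D4 KLF9 was 1.35-fold higher (log2 ratio 0.43, 0.36 to 0.51). For KLF15 the log2 ratio of D4 to D2 was 0.05, its counting interval (-0.09 to 0.19) included 0, and its sign turned under both other scalings of the libraries.

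Between D8 and D4 the levels of both genes were lower. KLF15 was 4.45-fold lower (log2 ratio -2.15, -2.41 to -1.93), and 60 of the 9191 mRNAs were lower by as much or more. KLF9 was 2.66-fold lower (log2 ratio -1.41, -1.51 to -1.31). At D8 KLF9 was still 3.24-fold above D0 (log2 ratio 1.70, 1.54 to 1.86). The corresponding ratio of KLF15 was 1.82 (log2 ratio 0.86, 0.53 to 1.22), with an interval on both sides of 2-fold, and under median-ratio scaling the log2 ratio was 1.02.

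KLF4, KLF6 and KLF7 had the opposite course. KLF6, on chromosome 10 from 66488445 to 66497830 (plus strand), had 30.6, 6.06, 8.07 and 27.4 FPKM at D0, D2, D4 and D8. It was the most abundant member at D0. KLF7, which spans chromosome 15 from 110282399 to 110380165 (minus strand), had 12.1 FPKM at D0 and 2.44 at D2, then 3.58 at D4 and 6.65 at D8. KLF4, a factor also used to reprogram cells to pluripotency, lies on chromosome 1 from 248604817 to 248609574 (minus strand) and had 5.40, 2.53, 2.42 and 6.31 FPKM at D0, D2, D4 and D8. The libraries D0 and D8 were thus the high ones and D2 and D4 the low ones for each of the 3 genes, although KLF7 at D8 was well under its level at D0.

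KLF6 was 5.04-fold lower at D2 than at D0 (log2 ratio -2.33, -2.42 to -2.25) and KLF7 4.92-fold lower (log2 ratio -2.30, -2.40 to -2.21). For KLF4 the difference was close to the threshold, 2.13-fold lower with a log2 ratio of -1.09 and a counting interval of -1.26 to -0.94. It did not reach 2-fold when the libraries were scaled to an equal sum over protein-coding genes (log2 ratio -0.98) or with a pseudocount of 1 (-0.86). The bulk samples do not tell fewer cells with a given mRNA from less of it per cell.

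From D4 to D8, KLF6 was 3.40-fold higher (log2 ratio 1.76, 1.70 to 1.83) and KLF4 2.60-fold higher (log2 ratio 1.38, 1.23 to 1.53). For KLF7 the ratio was 1.85 (log2 ratio 0.89, 0.81 to 0.98), and it passed 2-fold under median-ratio scaling, with a log2 ratio of 1.10. Relative to D0, KLF6 at D8 had a log2 ratio of -0.16, which was 0 to 2 decimals under median-ratio scaling, and KLF4 one of 0.22. KLF7 remained 1.81-fold lower (log2 ratio -0.86, -0.92 to -0.80).

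KLF3, KLF10 and KLF13 did not differ 2-fold in any of the 5 comparisons. KLF3, a repressor that recruits CtBP, lies on chromosome 8 from 30024978 to 30060981 (plus strand). Its level was 2.83 FPKM at D0 and 1.99 at D2, then 1.92 at D4 and 1.56 at D8, so that it was highest at D0 and lowest at D8, by 1.81-fold (log2 ratio -0.86, -1.01 to -0.72).

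KLF10, on chromosome 4 from 34430132 to 34435990 (plus strand), had 20.1, 24.7, 32.0 and 20.6 FPKM at D0, D2, D4 and D8. Its level at D4 was 1.59-fold that at D0 (log2 ratio 0.67, 0.62 to 0.73), whereas D8 and D0 were indistinguishable by counting error (log2 ratio 0.04, -0.03 to 0.10). Under median-ratio scaling the log2 ratio of D8 to D0 was 0.19, outside this interval. KLF13, on chromosome 1 from 143499136 to 143540233 (minus strand), was the steadiest member, with 6.67 FPKM at D0 and 7.94 at D2, then 7.79 at D4 and 8.81 at D8. Its highest level was 1.32-fold its lowest, compared with a median of 1.64 over the 9191 mRNAs, and its intervals at D2, D4 and D8 overlapped.

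KLF2 and KLF5 had few reads. KLF5 was close to the limit of detection in each library, and KLF2 was so at D2. KLF2, on chromosome 2 from 61270733 to 61273037 (minus strand), had 62 reads at D0 (0.507 FPKM) and 1 at D2 (0.0112), followed by 18 at D4 (0.149) and 23 at D8 (0.262). The library D2 was the low one, with a log2 ratio to D0 of -5.50 on FPKM without a pseudocount and a counting interval of -10.83 to -2.97. At D4 KLF2 was 3.40-fold lower than at D0 on the same scale (-1.76, -2.61 to -0.99).

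KLF5, on chromosome 11 from 45370009 to 45386673 (plus strand), had 6 reads at D0 (0.116 FPKM), 10 at D4 (0.196) and 5 at D8 (0.134). No read was found at D2, which allows a level of up to 0.0794 FPKM at 3 reads. The level at D4 was 2.46-fold this limit, the counting interval of the ratio of D4 to D2 began at 1.66-fold, and its counting intervals at D0, D4 and D8 overlapped. These are the smallest read numbers that match the FPKM of KLF5, and whole multiples of them would match as well.

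**Figure D2:**
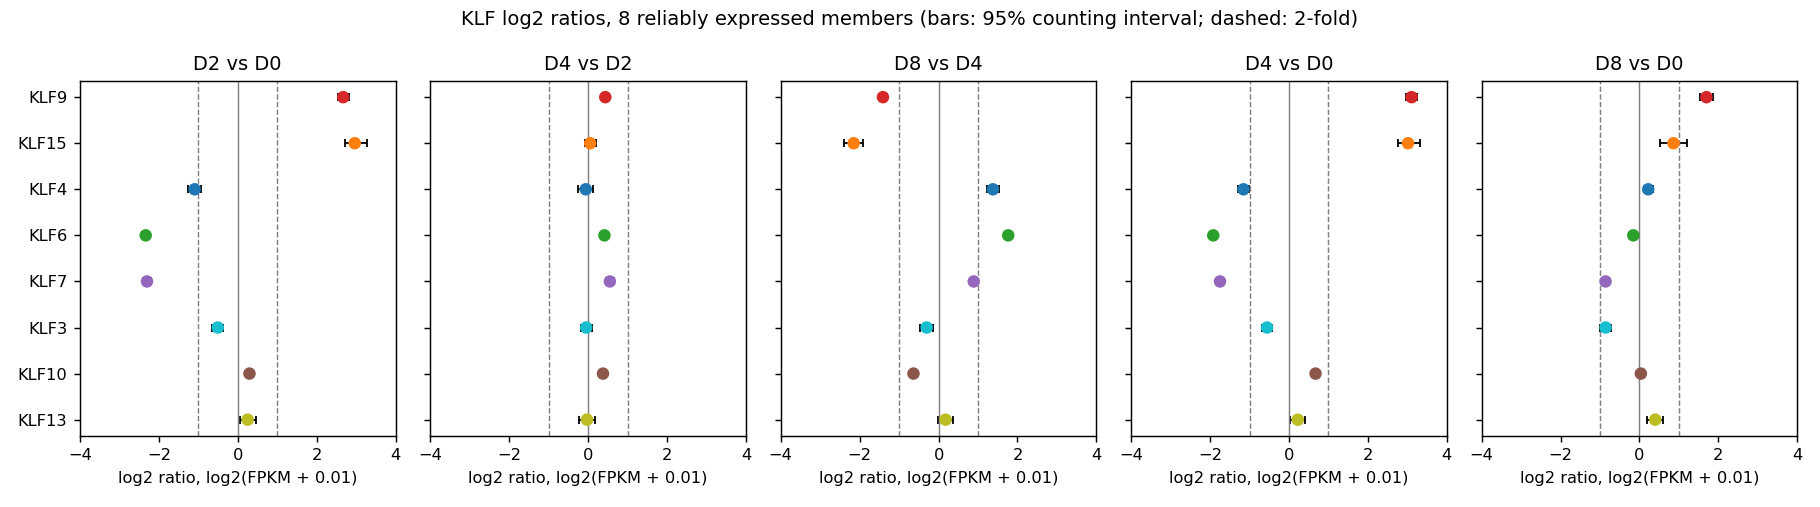
Log2 ratios of FPKM (pseudocount 0.01) for the 8 reliably expressed members in the 5 comparisons, with 95% counting intervals as bars and dashed lines at 2-fold. Between D2 and D0, KLF9 and KLF15 lie to the right of the upper line. KLF6 and KLF7 lie to the left of the lower line, as does KLF4, close to it. Between D4 and D2 every member lies within the lines, and between D8 and D4 KLF9 and KLF15 are on the left and KLF4 and KLF6 on the right.

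By comparison, 5 of the 8 reliably expressed members were 2-fold or more apart between D2 and D0, against 16.8% of the 9191 mRNAs. They were KLF9 and KLF15 on the higher side, where 6.67% of the mRNAs lay, and KLF4, KLF6 and KLF7 on the lower side, where 10.1% lay. None of the 8 differed 2-fold between D4 and D2, against 5.08% of the mRNAs (4.24% higher and 0.838% lower). Between D8 and D4 there were 4, against 14.5%, with KLF4 and KLF6 higher (4.43% of the mRNAs) and KLF9 and KLF15 lower (10.1%). Under median-ratio scaling 6.43% of the mRNAs were higher and 5.94% lower in this comparison, and KLF7 joined KLF4 and KLF6. The members were chosen with earlier results of these data known, and KLF15 passed the filter through the libraries where it was higher. KLF11 and KLF16, reliably expressed but not members, did not differ 2-fold in any comparison. The shares thus describe the members and do not test them.

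The comparison of D4 with D0 shares its D0 library with that of D2 and gave KLF9 and KLF15 higher (10.4% of the mRNAs) and KLF4, KLF6 and KLF7 lower (8.81%), 5 of 8 members against 19.2%. Between D8 and D0 only KLF9 differed at least 2-fold, 1 of 8 members against 7.28%, with 3.60% of the mRNAs higher and 3.68% lower (4.41% and 2.26% under median-ratio scaling). The median log2 ratio of the 8 members was -0.13 for D2 vs D0, 0.21 for D4 vs D2 and -0.06 for D8 vs D4, and relative to D0 it was -0.17 at D4 and 0.13 at D8. Those of the 9191 mRNAs were -0.03, 0.09, -0.21, 0.06 and -0.18, respectively. The medians of the members lay near 0, with single members well to either side.

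**Figure D3:**
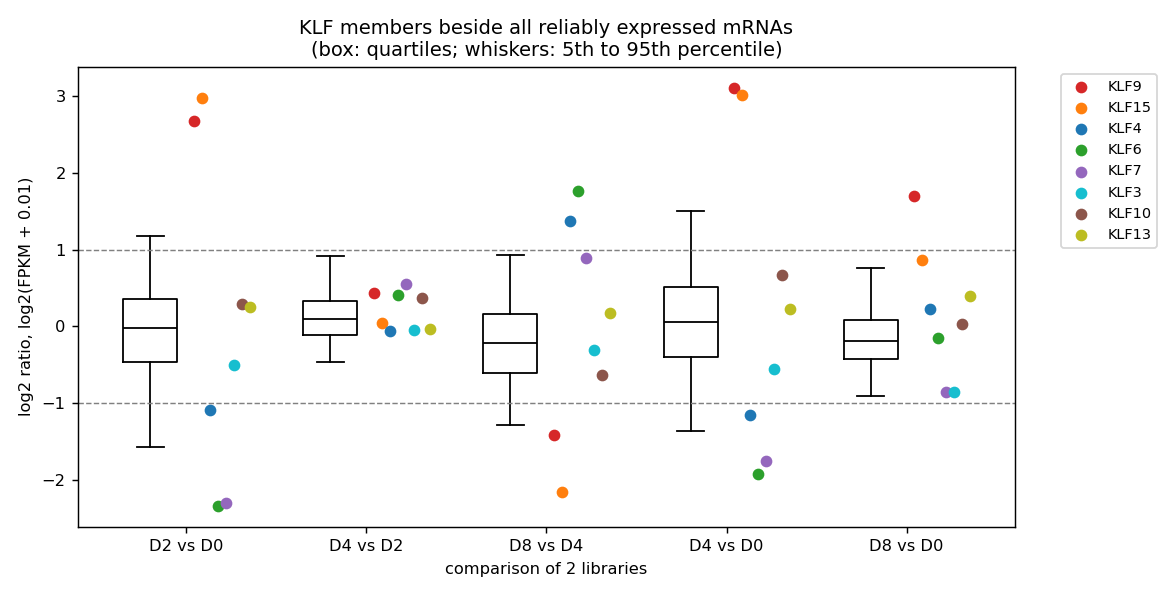
Log2 ratios of all 9191 reliably expressed mRNAs (boxes with the median and quartiles, whiskers from percentile 5 to 95) and of the 8 reliably expressed KLF members (coloured points) in each comparison, with dashed lines at 2-fold. KLF9 and KLF15 lie above the upper whisker in the comparisons of D2 and D4 with D0, KLF6 and KLF7 lie below the lower whisker between D2 and D0, and between D4 and D2 all 8 lie within the whiskers.

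Because the members differed in opposite directions, the order of their levels was not the same at each stage. FPKM is scaled by gene length, so that levels can be set side by side, but KLF9 and KLF13 were counted over the shortest stretches of the 8 members (734 and 879 bases), and reads outside them did not enter. At D0 the order was KLF6, KLF10, KLF7, KLF9, KLF13, KLF4, KLF3, KLF15, KLF2 and KLF5, and only KLF15 and KLF2 had overlapping intervals as neighbours. At D2 KLF9 was first, ahead of KLF10, KLF13, KLF6, KLF15, KLF4, KLF7 and KLF3, and KLF4 could not be told from KLF7.

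At D4 KLF9 and KLF10 again had the highest levels, and KLF6 and KLF13 in the third and the fourth place overlapped. At D8 KLF9 and KLF6 overlapped at the top and KLF7 and KLF4 in the fifth and the sixth place. The 10 levels summed to 87.6, 106, 136 and 101 FPKM at D0, D2, D4 and D8. KLF6 held 34.9% of this sum at D0 and 5.70% at D2, then 5.92% at D4 and 27.1% at D8, whereas KLF9 held 9.91%, 52.1%, 54.9% and 27.9%, respectively. KLF10 was between 20.4% and 23.5% in each library.

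**Figure D4:**
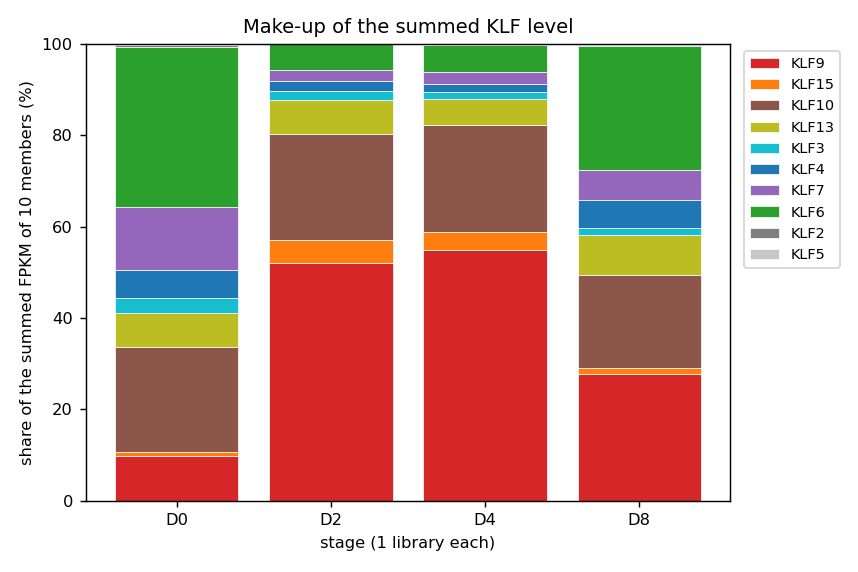
Share of each member (%) in the summed FPKM of the 10 KLF genes at each stage, 1 library per bar. KLF9 takes 52.1% at D2 and 54.9% at D4, KLF6 takes 34.9% at D0 and 27.1% at D8, and KLF10 keeps a share of 20.4% to 23.5%.

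Ratios of members within a library do not depend on how the libraries are scaled, and 2 pairs were chosen for them after their values were seen. KLF9 relative to KLF6 was 0.284 at D0 (95% counting interval 0.258 to 0.311), 9.15 at D2 (8.54 to 9.80), 9.28 at D4 (8.82 to 9.76) and 1.03 at D8 (0.962 to 1.09). KLF15 relative to KLF7 was 0.0545 at D0 and 2.13 at D2, then 1.504 at D4 and 0.181 at D8. In both pairs D2 and D4 stood apart from D0 and D8 by far more than the counting error.

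The glucocorticoid response list, 10 genes of which 8 were reliably expressed, was set beside KLF9 and KLF15. Of these, 7 were at least 2-fold higher at D2 than at D0 and 1, ERRFI1, was at least 2-fold lower, with a median log2 ratio of 3.17. FKBP5, a chaperone of the glucocorticoid receptor, had 4.88, 61.2, 77.4 and 38.6 FPKM at D0, D2, D4 and D8. TSC22D3, which encodes the glucocorticoid-induced leucine zipper, had 3.26, 33.5, 23.6 and 31.7 FPKM, and GLUL, glutamine synthetase, 35.5, 288, 412 and 127 FPKM in the same order.

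Between D8 and D4, FKBP5, GLUL and ZBTB16 were at least 2-fold lower, as KLF9 and KLF15 were, whereas PDK4 (log2 ratio -0.05) and TSC22D3 (0.42) were not, and the median was -0.76. FKBP5 was at the threshold (log2 ratio -1.003) and lies within 2-fold under median-ratio scaling, with its shift of 0.21. No gene of the list differed 2-fold between D4 and D2.

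Among 8 reliably expressed adipogenic factors, CEBPA, CEBPD, EBF1 and PPARG were at least 2-fold higher at D2 than at D0 and none was lower (median log2 ratio 0.95). CEBPD also stands in the glucocorticoid list. PPARG, the nuclear receptor that directs adipogenesis, had 2.95 FPKM at D0 and 26.4 at D2, then 51.9 at D4 and 25.8 at D8, and CEBPA had 15.4, 95.3, 162 and 37.1 FPKM. Both were highest at D4, as was KLF9. CEBPB, which KLF4 activates together with EGR2 in mouse cells, had 20.6, 22.4, 31.1 and 12.8 FPKM, while EGR2 was listed at 0 at D0 and D2 and did not exceed 0.0430 FPKM. There was no library between D0 and D2, so that earlier levels of KLF4, KLF5 and EGR2 after induction are not known.

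Between D8 and D4, CEBPA, CEBPB, EBF1, PPARG and RXRA were at least 2-fold lower and none of the 8 factors was higher. PPARG was at the threshold (log2 ratio -1.01), and the shift of 0.21 under median-ratio scaling places it within 2-fold. Genes reported as KLF targets did not share 1 course, and the action of the KLF factors on them was not tested. Of the 9 genes in this list, 6 had a protein-coding row, and DLK1 was not among them. SLC2A4, the insulin-responsive glucose transporter that KLF15 activates in cultured cells, had 0.0924, 1.53, 8.80 and 7.58 FPKM at D0, D2, D4 and D8, so that it was still high at D8, where KLF15 was low. ADIPOQ, which encodes adiponectin, had 3.80, 29.6, 179 and 158 FPKM, and BCAT2, a branched-chain aminotransferase and a KLF15 target in muscle, 5.09, 7.25, 9.10 and 5.50 FPKM, which is highest at D4. Of 5 reliably expressed genes in this list, 4 were at least 2-fold higher at D2 than at D0, and none differed 2-fold between D8 and D4. FABP4 was close to the threshold in the latter (log2 ratio 0.87), and the shift of 0.21 under median-ratio scaling takes it past 2-fold.

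**Figure D5:**
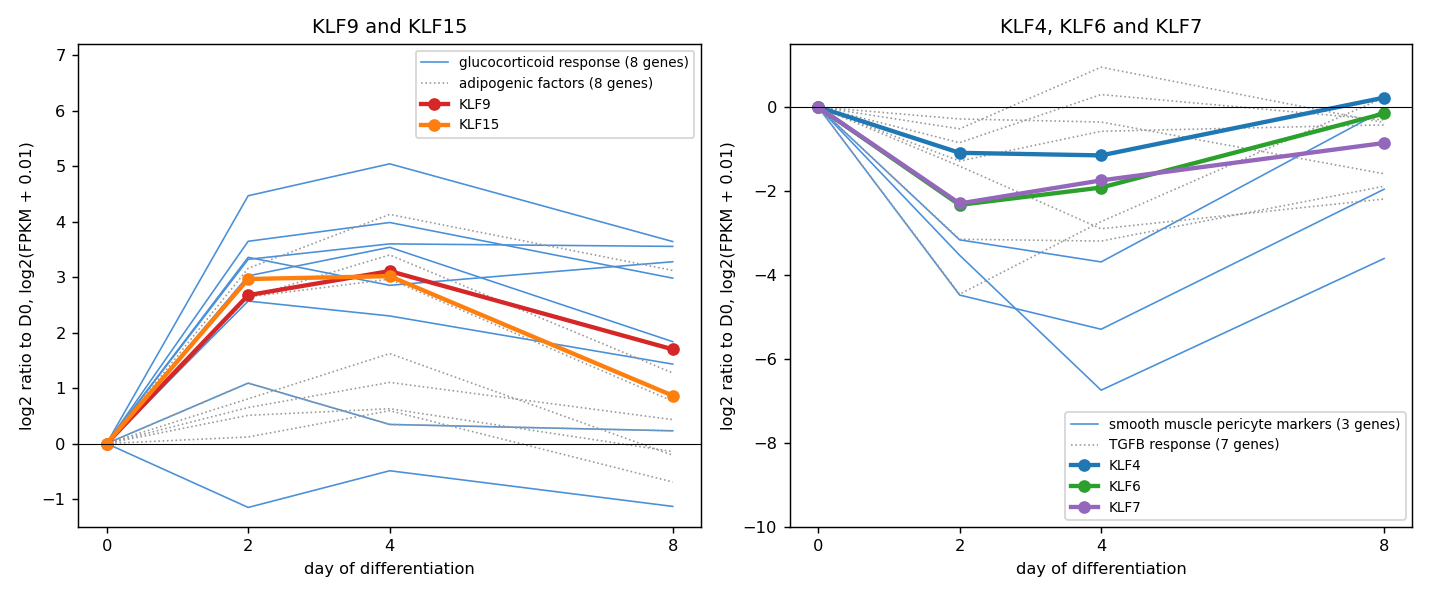
Log2 ratio to D0 (pseudocount 0.01) against the day of differentiation, for KLF9 and KLF15 beside 8 glucocorticoid response genes and 8 adipogenic factors (left) and for KLF4, KLF6 and KLF7 beside 3 smooth muscle or pericyte markers and 7 TGF-beta response genes (right), reliably expressed genes only. KLF9 and KLF15 run among the upper lines until D4, and KLF4, KLF6 and KLF7 are lowest at D2 or D4, as the smooth muscle markers are.

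Among 5 markers of smooth muscle and pericytes, ACTA2, CNN1 and DES resembled KLF4, KLF6 and KLF7 in part. The directions were the same from D0 to D2 and from D4 to D8. From D2 to D4, however, DES was 9.28-fold lower, CNN1 1.76-fold and ACTA2 1.44-fold, whereas KLF6 was 1.33-fold and KLF7 1.46-fold higher. At D8, DES was 12.2-fold and CNN1 3.89-fold below D0, while ACTA2 (log2 ratio -0.07), KLF6 (-0.16) and KLF4 (0.22) were near their levels at D0. The 5 markers summed to 3438 FPKM at D0 and 366 at D2, then 233 at D4 and 2823 at D8, most of it ACTA2, smooth muscle actin, which stromal cells in culture also express. ACTA2, CNN1 and DES were the reliably expressed ones, and each was at least 2-fold lower at D2 than at D0 and at least 2-fold higher at D8 than at D4. MYH11, the defining myosin, had 0.633, 0.350, 0.341 and 0.289 FPKM and RGS5, a pericyte marker, 0.156, 0.142, 0.742 and 0.352 FPKM, and neither followed that course. The part of these cells or of this state in the levels of the 3 KLF genes was not tested.

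In the TGF-beta response list, 4 of 7 reliably expressed genes, CTGF, LTBP2 and SKIL among them, were at least 2-fold lower at D2 than at D0 and none was higher, while KLF10 was 1.23-fold higher (log2 ratio 0.30, 0.23 to 0.36). CTGF had 44.5, 2.01, 6.70 and 52.0 FPKM at D0, D2, D4 and D8. SMAD7, an inhibitor of the pathway, had 1.94, 1.35, 3.76 and 1.499 FPKM, and was highest at D4, as KLF10 was.

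Immediate early genes, with which KLF4, KLF6 and KLF10 are often induced by serum, were divided. Of 9 reliably expressed genes, FOS, EGR1 and MYC were at least 2-fold higher at D2 than at D0 and JUN, ATF3 and IER3 at least 2-fold lower. JUN had 9.42 FPKM at D0 and 2.06 at D2, then 2.83 at D4 and 7.92 at D8, low in the same 2 libraries as KLF6, whereas FOS had 1.49, 9.83, 9.66 and 4.46 FPKM.

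Of the other Krüppel-like factors, 6 had a row, and KLF11 and KLF16 were reliably expressed without a 2-fold difference in any comparison. KLF16 had 10.5, 7.41, 8.40 and 7.57 FPKM at D0, D2, D4 and D8. KLF12, a CtBP-binding relative of KLF3, had 2.29 FPKM at D0 and 0.517 at D2, then 0.967 at D4 and 0.893 at D8, and was below the filter despite 521 reads or more in each library. KLF1 and KLF14 had at most 1 read in any library. The related factors SP1 and SP3, which bind similar GC-rich sequences, had 7.37 and 25.0 FPKM at D0, 8.74 and 28.0 at D2, 9.85 and 26.4 at D4 and 5.77 and 23.2 at D8.

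None of the 11 reliably expressed genes for cofactors of the family, among them the corepressors CTBP1, CTBP2 and SIN3A, the histone deacetylases HDAC1 to HDAC3, the acetyltransferase EP300 and the ubiquitin ligase WWP1, differed 2-fold in any of the 5 comparisons. Between 5.08% and 19.2% of the 9191 mRNAs did so. At such shares few of 11 genes would pass, so that the count says little about cofactors in particular. The median log2 ratios of the cofactor genes ran from -0.29 (D8 vs D0) to 0.08 (D4 vs D2).

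Likeness of pattern was measured as the root mean square distance of log2(FPKM + 0.01), centred for each gene, over the 4 libraries. Between members, KLF10 and KLF13 (0.29), KLF6 and KLF7 (0.34) and KLF9 and KLF15 (0.42) were the closest pairs, and KLF6 and KLF15 (2.34) the most distant. Even the closest pairs were more than 0.25 apart. Within 0.25 lay 2949 mRNAs for KLF10, 2282 for KLF13, 110 for KLF7 and 35 for KLF6. The 3 mRNAs closest to KLF15 were PLPP3 (0.07), ABCC9 (0.12) and EBF1 (0.12), and no more than 10 mRNAs lay within 0.25. EBF1, an early adipogenic factor, had 4.51, 28.2, 35.2 and 7.66 FPKM at D0, D2, D4 and D8.

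Close to KLF9 were F2RL2 (0.10) and PHF7 (0.12), with 17 mRNAs within 0.25. KLF6 was closest to AGTR1 (0.06), the angiotensin receptor gene, which had 28.0 FPKM at D0 and 5.96 at D2, then 7.83 at D4 and 24.4 at D8, followed by ARHGEF25 (0.09) and DAPK3 (0.09). KLF7 was closest to CSRP1 (0.06), FLRT3 (0.07) and PDLIM1 (0.08), of which CSRP1 and PDLIM1 encode LIM proteins, and KLF4 to CXH4orf3, DNAJC17 and RAP1GDS1, each at 0.05 or 0.06. The patterns of KLF3 (SLC15A4, GLIS3 and MED9), KLF10 (TNRC6A, LSM7 and XPNPEP3) and KLF13 (TMEM261, VPS45 and RPS25) were common, with between 1707 and 2949 mRNAs within 0.25.

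Other RNAs were listed at 7 of the loci. A circRNA is a closed RNA read from its back-splice junction, and its amount was given as SRPBM, junction reads scaled by all mapped reads. A circRNA of 631 bases of genomic span within KLF7, on chromosome 15 from 110339313 to 110339943 on the same strand, had 50, 26, 21 and 22 junction reads at D0, D2, D4 and D8 (321, 189, 125 and 185 SRPBM). It was highest at D0, as the mRNA was. Between D2 and D0 its log2 ratio was -0.76 (-1.51 to -0.05), beside -2.30 for the KLF7 mRNA, and the counting intervals of the 2 did not overlap. SRPBM and FPKM are scaled by different totals, however. For SRPBM 1 junction read was 6.42 at D0 and 7.27 at D2, while the FPKM totals were 75387428 and 54987801 fragments. The size of the circRNA ratio, whose interval ends at -0.05, thus depends on the total used.

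A second circRNA, on chromosome 1 from 223722952 to 223723842, crossed the annotated end of KLF9 and had 10, 9, 20 and 4 junction reads (64.2, 65.4, 119 and 33.6 SRPBM). Its log2 ratio between D2 and D0 was 0.03 with an interval of -1.45 to 1.48, which lay under that of the KLF9 mRNA (2.53 to 2.82). Here too the circRNA and the mRNA are scaled by different totals. Between D8 and D4 it was lower (-1.82, -3.83 to -0.24), as the mRNA was. With at most 20 junction reads, the other comparisons of this circRNA included 0.

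Antisense transcripts overlapped KLF5, KLF6 and KLF7. That at KLF7, MSTRG.135866 on chromosome 15 from 110379635 to 110382066, overlapped 531 bases at the start of the gene and had 2.02 FPKM at D0 and 0.875 at D2, then 0.836 at D4 and 0.957 at D8, highest at D0. Relative to D0 its log2 ratios were -1.21, -1.27 and -1.08 at the later stages, with counting intervals that reached within 2-fold. The antisense transcript MSTRG.99287 covers all of KLF5, from 45308763 to 45389950, with 2.53, 0.708, 0.419 and 0.863 FPKM. At KLF6, MSTRG.97094 had 0.435, 0.133, 0.515 and 0.270 FPKM. The kit keeps the strand, but whether the counting used it is not given in the sources used here, so that sense and antisense reads cannot be told apart at these 3 loci, KLF5 having the fewest reads of its own.

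At KLF15 the annotated lncRNA LOC102164647 starts 91 bases from the start of the gene, on the opposite strand (53890649 to 53907697). It had no read at D0 and 30 at D2, then 12 at D4 and 5 at D8, that is 0.475, 0.141 and 0.0805 FPKM at the last 3 stages. The lncRNA was highest at D2 and the KLF15 mRNA was about equal at D2 and D4. It was looked at after its values were seen. An annotated lncRNA that overlaps 452 bases at the start of KLF3, LOC100510918, stayed at 0.144 FPKM or below, and another inside KLF13 had 1 read in all.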

How the data were processed

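Clean reads of 4 libraries, each from the pooled RNA of 3 piglets, had been aligned by the authors to the pig genome (Sscrofa11.1) with HISAT2 2.0.5, and circRNAs had been called with BWA-MEM and CIRI. The authors deposited FPKM for 22944 genes and, in the same column, SRPBM for circRNAs, a signal of junction reads scaled by mapped reads. The counting tool is not given in the sources used here. Members and lists were chosen with earlier results of these data known. Named were the 10 members, genes of the fixed lists, and the 3 mRNAs closest to each reliably expressed member. Some genes that this rule names are not reported here.

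In tRNA genes the length is the genomic span, and the smallest product of FPKM and length is 1 read (21 to 28 genes per library), which gave the library totals. The shortest length in whole bases that made the 4 values whole reads within 0.01 was then used. On simulated data for 1000 genes, D2 vs D0, reads were equal for 96.8% and whole fractions for 3.20%, and 100% of 200 genes changed 4-fold passed 2-fold. SRPBM values were whole junction reads within 0.05 for 100%. Counting intervals were exact (Poisson for levels, Clopper-Pearson for ratios; scipy 1.17.1, Python 3.11.15). The 2-fold rule used log2(FPKM + 0.01) without a test. Gene positions are those of the deposited files, and chromosome names come from RefSeq genes of the same build. Alternatives were other pseudocounts, scalings, filters and a ratio of 1.5.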

Additional observations from a re-analysis of the deposited data

How the results depend on the processing

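The number of members that differed at least 2-fold stayed within 1.5 times its value under each alternative for D2 vs D0 (between 4 and 7), D8 vs D4 (between 3 and 6) and D4 vs D0 (between 4 and 6). Without a filter, KLF2 and KLF5, which have few reads, entered for D2 vs D0 (7) and KLF2 for D4 vs D0 (6). For D4 vs D2 it was 0 under each alternative except without a filter, where it was 2, KLF2 and KLF5. For D8 vs D0 it was 1, and 2 under median-ratio scaling, which added KLF15, and 4 at a ratio of 1.5, which added KLF3, KLF7 and KLF15. The share of all mRNAs past the threshold, 5.08% to 19.2% over the 5 comparisons, was 18.7% to 32.2% without a filter and 14.6% to 39.5% at a ratio of 1.5. Requiring FPKM 1 in all 4 libraries removed KLF15. Median-ratio scaling shifted the log2 ratios by 0.21 for D8 vs D4 and 0.16 for D8 vs D0, and equal sums over protein-coding genes by 0.11 for D2 vs D0. Of 200 alternative log2 ratios of members, 157 stayed within the counting interval, 43 moved beyond it and 3 changed sign, all in ratios under 2-fold (KLF15, D4 vs D2, and KLF6, D8 vs D0). The largest move of a reliably expressed member, 1.07 for KLF15 between D4 and D0, came with a pseudocount of 1. No paired analysis was possible because each stage has 1 library. No library could be left out for the same reason, and with no replicates only counting error is known.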
